A study of Mus musculus with 8 samples.

Results

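The 10 genes described here encode the TGF-beta ligands (Tgfb1, Tgfb2, Tgfb3), their receptors and co-receptors (Tgfbr1, Tgfbr2, Tgfbr3, Eng) and 3 feedback genes (Smad7, Skil, Pmepa1). They were chosen by name as genes of the pathway, with earlier results of these arrays known, and all 10 were found among 30145 genes that had a row with 1 gene symbol in the deposited table. Each had 1 row, so no choice between rows was needed. The tissue was ascending aorta of males aged 10 weeks, and its RNA was read on 8 Affymetrix Clariom D mouse arrays. The 4 arrays mgR611, mgR612, mgR613 and mgR614 hold Fbn1mgR/mgR tissue, and the 4 arrays WT675, WT676, WT742 and WT744 wild-type tissue, all from crosses of Fbn1mgR/+ animals on a C57BL/6J background. Fbn1 encodes fibrillin-1, and mgR is an allele that lowers its production in every tissue and is used to model severe Marfan syndrome. The Fbn1 transcript was not analysed here and gives no check of the genotypes. The labels number the samples without saying that each came from a separate animal, so p-values measure only how far these samples vary, and that variation may be technical.

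TGF-beta ligands are secreted in a latent form that is held in the matrix by binding proteins attached to fibrillin microfibrils. Once released, a ligand binds the type II receptor (Tgfbr2), which activates the type I receptor (Tgfbr1). This in turn phosphorylates SMAD2 and SMAD3, which enter the nucleus with SMAD4. The pathway induces its own inhibitors, among them Smad7, Skil and Pmepa1, whose transcripts are often read as a sign of its activity. In the aortic wall it acts on smooth muscle cells, fibroblasts and endothelium, and it has long been studied in Marfan aneurysm.

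All values below are log2 signals, on which 1 unit is a 2-fold step, and a difference is Fbn1mgR/mgR minus wild-type. The median signal of an array was 3.95 to 4.07 over 65956 rows. Signals of 1080 olfactory receptor rows, a reference for genes that the aorta hardly expresses, had a 95th percentile of 4.12. The lowest value of any of the 10 genes was 5.93 (Smad7 in mgR612) and the highest 15.27 (Tgfb3 in mgR611), so all lay above that level and below the ceiling of 19.93. All 8 smooth muscle markers examined were above the filter on dim rows, and none passed the test between genotypes. Of these, 6 were below 0, with a median difference of -0.45, and 46.1% of all rows tested were above 0. At an unadjusted limma p under 0.05, 2 were lower (background 6.72% of all rows tested). These were Myh11 (-1.01, limma adjusted p = 0.226) and Des (-0.81, adjusted p = 0.166). The mean signal of the 8 markers was 12.34 to 13.34 in mutant and 13.00 to 13.72 in wild-type arrays, and its part in the results that follow was not tested. These are whole pieces of tissue, so fewer cells of a type and less RNA per cell cannot be told apart.

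None of the 10 genes passed the test between genotypes (limma with Benjamini-Hochberg adjustment, adjusted p under 0.05), neither higher (background 1.54% of 32957 rows tested) nor lower (background 0.558%, and 2.1% in either direction). Adjusted p-values ran from 0.162 (Tgfbr3) to 0.907 (Skil), so that 0 of 10 would pass at 0.1 as well (background 3.67%). At an unadjusted p under 0.05, 0 genes were higher (background 7.45%) and 1, Tgfbr3, was lower (background 6.72%). In all 10 the values of the 2 genotypes overlapped. Over all rows tested the genotypes were apart in 8.92% (5.26% with the mutant arrays higher and 3.65% with them lower). A count of 0 of 10 apart is close to that share. The difference was above 0 for 8 genes (46.1% of all rows tested) and below 0 for Tgfbr1 and Tgfbr3. The median was 0.19 over the 10 genes and -0.02 over all rows tested. These counts and medians describe the 10 genes and were not tested as a group.

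**Figure D1:**
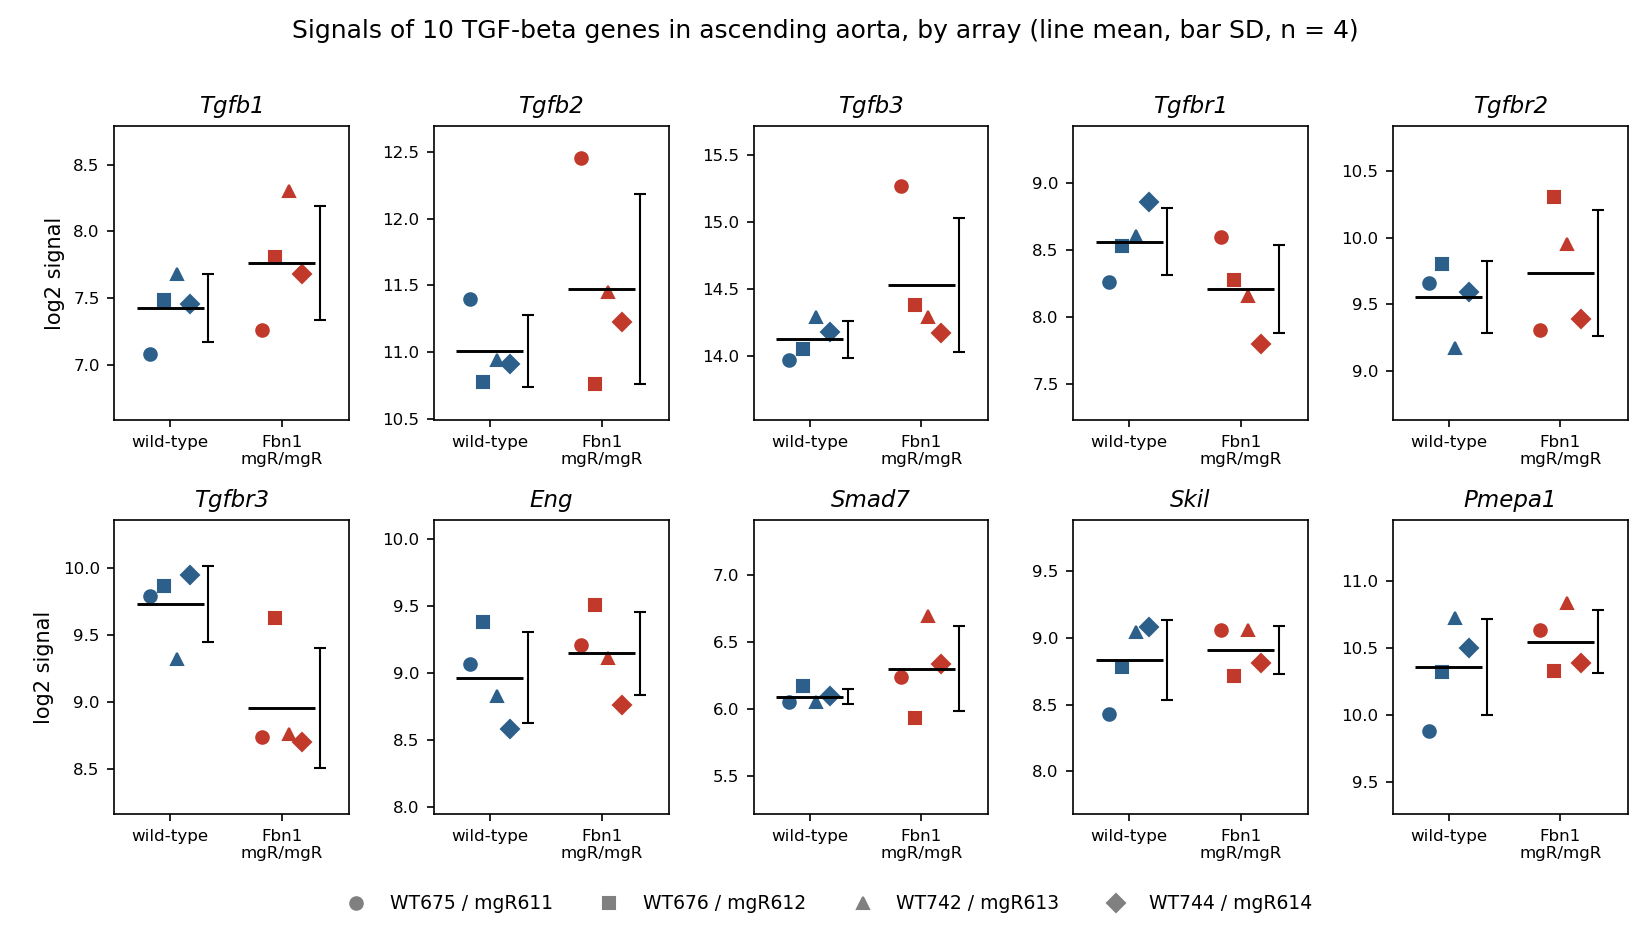
Log2 signal (vertical axes, each spanning the same range) of the 10 genes in the 4 wild-type (blue) and 4 Fbn1mgR/mgR (red) arrays, with the group mean as a line and the SD as a bar; marker shapes name arrays and do not pair them. The genotypes overlap in every panel, and mgR611 lies highest in Tgfb2 (12.45) and Tgfb3 (15.27).

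Among the ligands, Tgfb1, the isoform made by many cell types including macrophages and platelets, had signals of 7.26, 7.81, 8.30 and 7.68 in mgR611, mgR612, mgR613 and mgR614. In WT675, WT676, WT742 and WT744 it had 7.08, 7.49, 7.68 and 7.46. Mutant array mgR613 was the highest of all 8, mgR612 lay slightly above all wild-type arrays, mgR614 was level with the highest of them, and mgR611 lay within their range. The means were 7.76 ± 0.428 and 7.43 ± 0.251 (SD, n = 4 each), and the difference was 0.34 (SE 0.223, limma adjusted p = 0.578). Its 95% confidence interval, which is not adjusted for the number of rows tested, ran from -0.17 to 0.84, or from 0.891-fold to 1.79-fold. The difference was 0.16 without mgR613 and 0.22 without WT675 (adjusted p = 0.837 and 0.789, within a range of 0.320 to 0.837). Markers of macrophages moved with the genotype far more than Tgfb1 did: 14 of 14 passed the limma threshold as higher in the mutant arrays (background 1.54% of all rows tested). Their mean signal was 9.41 to 10.13 there against 7.62 to 7.98 in wild-type arrays. The part of these cells in the Tgfb1 values was not tested.

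Tgfb2, the isoform with a leading role in development of the heart and outflow vessels, was the most variable of the 10 genes within genotypes. It had signals of 12.45, 10.76, 11.45 and 11.23 in the mutant arrays and 11.40, 10.78, 10.94 and 10.91 in the wild-type arrays, in the order given above. The mutant arrays thus held both the highest value (mgR611) and the lowest (mgR612) of all 8. Its difference was 0.47 (SE 0.321, limma adjusted p = 0.596), with an interval of -0.26 to 1.19. Without mgR611 the difference was 0.14 (adjusted p = 0.850; 0.314 to 0.850 over all alternatives). The within-genotype SD of Tgfb2, 0.539, exceeded that of 93.9% of all rows tested.

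Tgfb3, the third isoform, had signals of 15.27, 14.38, 14.29 and 14.17 in mutant and 13.97, 14.05, 14.29 and 14.18 in wild-type arrays. Only mgR611 stood well above the rest, mgR612 lay slightly above all wild-type arrays, and mgR613 and mgR614 lay within their range. The difference was 0.41 (SE 0.223, limma adjusted p = 0.474), with an interval of -0.10 to 0.91, and it was 0.16 without mgR611 (adjusted p = 0.620; 0.405 to 0.666 over all alternatives). The array mgR611 was thus the highest of all 8 in Tgfb2 and Tgfb3, but was second lowest in Tgfb1. That array had the highest smooth muscle marker mean of the mutant arrays (13.34 against 12.34 to 13.04) and the lowest endothelial marker mean (8.73 against 8.86 to 9.76). Whether these bear on its ligand signals was not tested.

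The upstream sequences of Tgfb1 and Tgfb2 are shown because their start regions are of different kinds. Whether the sequences bear on the signals of either gene was not tested. RefSeq start regions (GRCm38.p6) were given for 5 of the 10 genes (Tgfb1, Tgfb2, Tgfbr1, Tgfbr2 and Eng). Printed are the 250 bases before the start, 5′ to 3′ on the strand of the gene: chr7:25686752-25687001 on the plus strand for Tgfb1, with matches to the GC box GGGCGG on either strand in capitals, and chr1:186705990-186706239 on the minus strand for Tgfb2, with the TATA box TATAAA, the E-box CACGTG and the element CAGAC, part of the sequences that SMAD proteins bind, in capitals on either strand.
Tgfb1: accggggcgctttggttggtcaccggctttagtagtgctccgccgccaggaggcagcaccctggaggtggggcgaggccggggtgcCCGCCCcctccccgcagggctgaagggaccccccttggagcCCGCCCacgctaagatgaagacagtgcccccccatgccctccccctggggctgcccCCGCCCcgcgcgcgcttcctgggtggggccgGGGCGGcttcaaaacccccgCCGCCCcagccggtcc
Tgfb2: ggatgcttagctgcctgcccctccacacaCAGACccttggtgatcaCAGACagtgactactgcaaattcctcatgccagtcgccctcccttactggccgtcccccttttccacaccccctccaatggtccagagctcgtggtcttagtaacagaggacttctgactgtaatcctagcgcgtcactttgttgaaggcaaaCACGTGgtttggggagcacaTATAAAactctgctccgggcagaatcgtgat
The Tgfb1 window held 5 GC boxes and none of the other motifs. A GC box was present in 32.7% of 32851 such windows of all genes. The Tgfb2 window held no GC box, but a TATA box at positions -31 to -26 from the start (present in 12.4% of windows), an E-box at -51 to -46 (6.02%) and 2 CAGAC elements (42.2%). The full SMAD palindrome GTCTAGAC was in neither window and in 0.167% of all windows. None of these matches overlapped another, and a match describes letters, not a bound site.

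Of the receptors, Tgfbr1, the type I receptor kinase, had signals of 8.60, 8.28, 8.16 and 7.80 in mutant and 8.26, 8.53, 8.61 and 8.86 in wild-type arrays. Both mgR613 and mgR614 lay below every wild-type array, while mgR611 and mgR612 lay within the wild-type range. The difference was -0.36 (SE 0.196, limma adjusted p = 0.475), with an interval of -0.80 to 0.09. It was -0.22 without mgR614 (adjusted p = 0.722) and -0.49 without mgR611 (adjusted p = 0.301; 0.301 to 0.749 over all alternatives).

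Tgfbr2, the type II receptor that binds the ligand, had signals of 9.31, 10.30, 9.95 and 9.39 in mutant and 9.66, 9.80, 9.17 and 9.59 in wild-type arrays. The mutant arrays fell on both sides of the wild-type mean of 9.56, with mgR612 and mgR613 above all wild-type arrays. The difference was 0.18 (SE 0.242, limma adjusted p = 0.822), with an interval of -0.36 to 0.73, and it was 0.33 without mgR611, 0.30 without mgR614 and -0.01 once mgR612 was left out (adjusted p = 0.997, with 0.633 to 0.997 for all alternatives). The receptor pair thus had differences of opposite sign, neither past the threshold.

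Tgfbr3 encodes betaglycan, a co-receptor that presents ligands, TGFB2 above all, to the type II receptor. It had signals of 8.74, 9.63, 8.76 and 8.70 in mutant and 9.79, 9.87, 9.32 and 9.95 in wild-type arrays. Of the mutant arrays, mgR611, mgR613 and mgR614 lay close together below every wild-type array, while mgR612 lay inside the wild-type range. The means were 8.96 ± 0.449 and 9.73 ± 0.283 (SD, n = 4 each), and the difference was -0.78 (SE 0.238), or 0.584-fold, with an interval of -1.31 to -0.24. It did not pass the threshold (limma unadjusted p = 0.00923, adjusted p = 0.162). Without mgR612 the difference was -1.0 and passed (limma adjusted p = 0.0358, with 0.0358 to 0.459 over all alternatives). Of 20 alternatives this was the only 1 in which Tgfbr3 passed.

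Mesothelial markers also differed among the arrays. Of 5 such markers none passed the test and all 5 were lower on average in mutant arrays, and 46.1% of all rows tested were above 0. At an unadjusted limma p under 0.05, 2 were lower (background 6.72% of all rows tested). These were Upk3b at -1.17 (limma adjusted p = 0.286) and Lrrn4 at -1.34 (adjusted p = 0.345). The mean of the 5 markers was 9.89, 11.08, 9.80 and 10.35 in mgR611, mgR612, mgR613 and mgR614, against 11.73, 11.83, 9.95 and 10.99 in WT675, WT676, WT742 and WT744. The array mgR612 was the highest mutant array and WT742 the lowest wild-type array in both Tgfbr3 and this mean. Other arrays were ordered differently: mgR614, the lowest of all 8 in Tgfbr3, lay above WT742 in the mesothelial mean, and WT744, the highest in Tgfbr3, lay below WT675, WT676 and mgR612. None of the 5 markers was at the level of dim signals, since the lowest mutant mean, that of Wt1, was 5.89. Of 11 endothelial markers none passed and 9 were below 0. Of these 9, 3 had an unadjusted limma p under 0.05 (background 6.72% lower). The mean of the 11 markers was 8.73 to 9.76 in mutant and 9.10 to 9.88 in wild-type arrays. The part of these cells in the Tgfbr3 values was not tested.

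**Figure D2:**
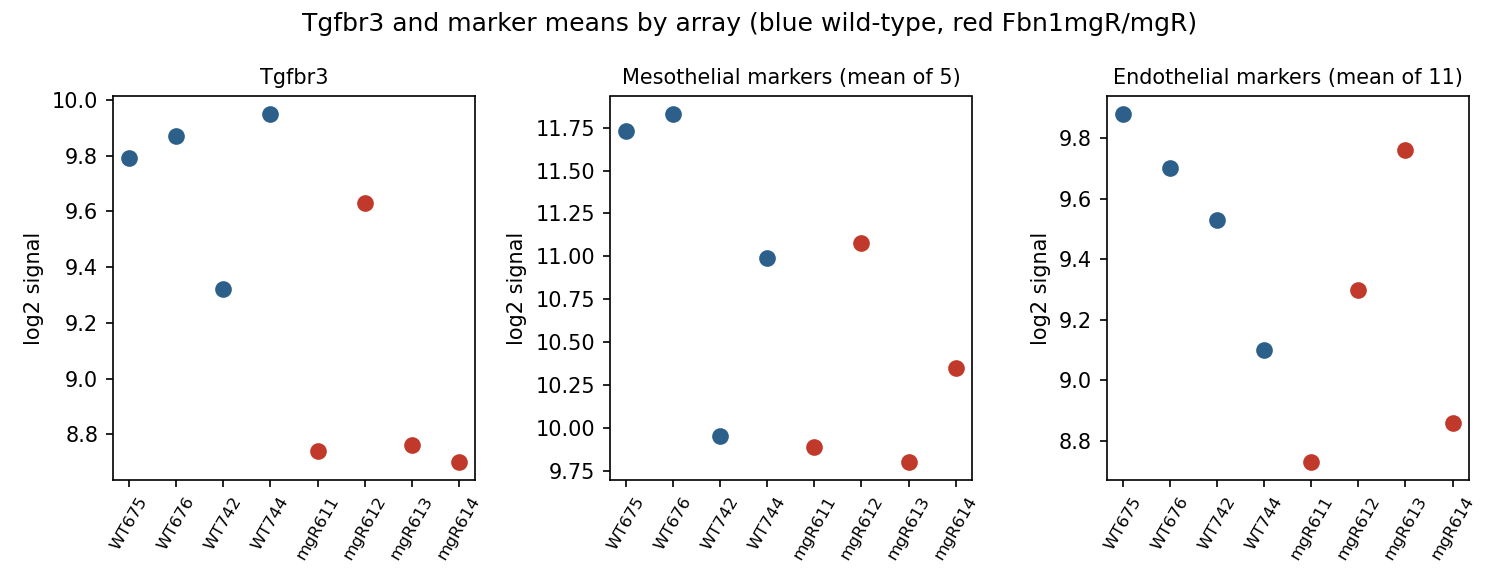
Log2 signal of Tgfbr3 and mean log2 signal of 5 mesothelial and 11 endothelial markers (vertical axes, each with its own range) in each array, wild-type in blue and Fbn1mgR/mgR in red. In Tgfbr3 and the mesothelial mean, mgR612 (9.63 and 11.08) is the highest red point and WT742 (9.32 and 9.95) the lowest blue point, while mgR614 is the lowest point in Tgfbr3 (8.70) but not in the mesothelial mean (10.35).

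The 3 genes whose profile over the 8 arrays came closest to Tgfbr3, by the mean absolute difference of values centred on each gene's own mean among 13038 genes, were Laptm4b (0.093), Gdf2 (0.136) and Neo1 (0.141). Laptm4b encodes a lysosomal membrane protein, Gdf2 the ligand BMP9, and Neo1 the receptor neogenin. Their differences were -0.80, -0.74 and -0.87, near that of Tgfbr3 because the genes were chosen for their likeness to it.

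Eng encodes endoglin, a co-receptor found chiefly on endothelial cells. It had signals of 9.21, 9.51, 9.11 and 8.76 in mutant and 9.07, 9.38, 8.83 and 8.58 in wild-type arrays. The mutant arrays covered nearly the same range, with mgR612 slightly above all wild-type arrays. The difference was 0.18 (SE 0.213, limma adjusted p = 0.790), with an interval of -0.30 to 0.66. It was 0.05 without WT744, 0.06 without mgR612, 0.31 without mgR614 and 0.32 without WT676, and 0.45 without mgR614 and WT676 together (adjusted p = 0.426; 0.426 to 0.959 over all alternatives). The 11 endothelial markers had differences from -0.95 (Tek) to 0.37 (Emcn), with a median of -0.42.

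The feedback genes came next. Smad7, which blocks the type I receptor and recruits ubiquitin ligases to it, had signals of 6.24, 5.93, 6.70 and 6.34 in mutant and 6.05, 6.17, 6.05 and 6.10 in wild-type arrays. The wild-type arrays lay within 0.12 of each other, while the mutant arrays lay on both sides of them, 3 above and mgR612 below. The difference was 0.21 (SE 0.159, limma adjusted p = 0.637), with an interval of -0.15 to 0.57. It was 0.08 without mgR613 and 0.33 without mgR612 (adjusted p = 0.891 and 0.318, the ends of the range over all alternatives). Its SD was 0.317 in mutant and 0.0568 in wild-type arrays.

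Skil, which encodes SnoN, a nuclear repressor of SMAD complexes, had signals of 9.06, 8.71, 9.06 and 8.81 in mutant and 8.43, 8.78, 9.04 and 9.08 in wild-type arrays. Every mutant array lay inside the wild-type range. The difference was 0.08 (SE 0.176, limma adjusted p = 0.907), with an interval of -0.32 to 0.47, and it was 0.16 without WT744, 0.14 without mgR612, 0.03 without mgR611 and -0.06 without WT675 (adjusted p = 0.939; 0.813 to 0.980 over all alternatives).

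Pmepa1, whose protein binds SMAD2 and SMAD3 and keeps them from the receptor, had signals of 10.64, 10.33, 10.84 and 10.39 in mutant and 9.88, 10.32, 10.73 and 10.50 in wild-type arrays. Only mgR613 lay above the wild-type range, and the lowest value was in WT675. The difference was 0.19 (SE 0.202, limma adjusted p = 0.760), with an interval of -0.26 to 0.65. It was 0.03 without WT675, 0.10 without mgR613 and 0.32 without WT742 (adjusted p = 0.970, 0.919 and 0.575, within a range of 0.575 to 0.970). The upper ends of the 3 intervals allow a rise of at most 1.48-fold for Smad7, 1.39-fold for Skil and 1.56-fold for Pmepa1 at that level of confidence.

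**Figure D3:**
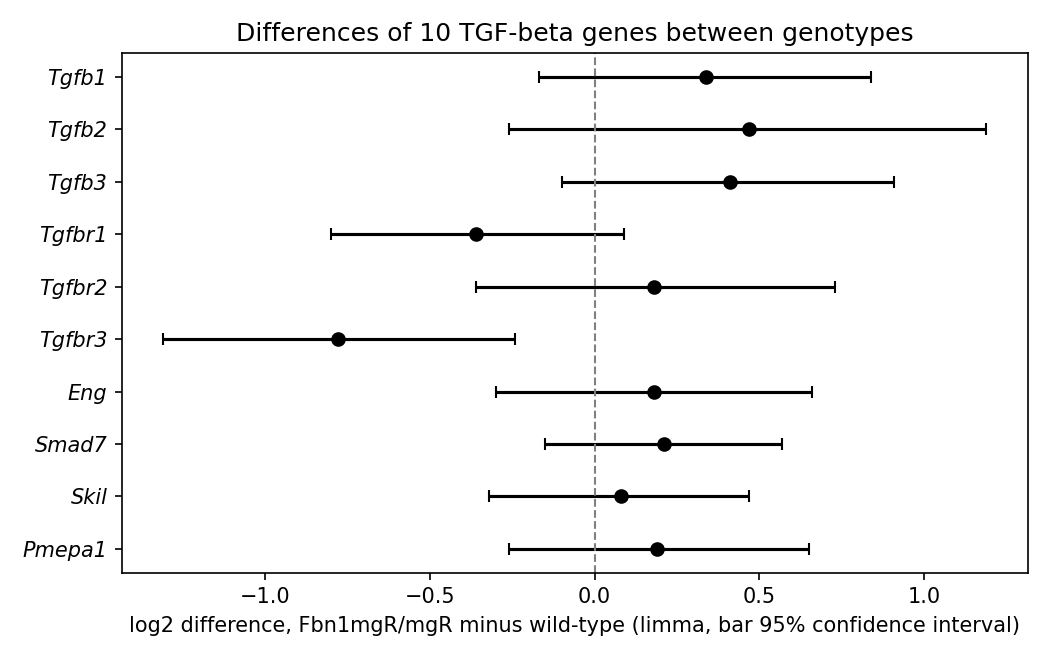
Log2 difference of each gene (horizontal axis, Fbn1mgR/mgR minus wild-type) with its unadjusted 95% confidence interval from limma. The intervals of 9 genes include 0, and that of Tgfbr3 runs from -1.31 to -0.24.

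Mutant arrays often varied more than wild-type arrays. The mutant SD exceeded the wild-type SD in 7 genes, against 54.1% of all rows tested; this was not tested. The exceptions were Eng, Skil and Pmepa1. The median within-genotype SD was 0.338 for the 10 genes and 0.218 for all rows tested, and the median half-width of the 95% interval was 0.492 against 0.340. With 4 arrays a genotype, a difference smaller than such a half-width leaves 0 inside the unadjusted interval of a typical gene of this group. The adjusted threshold asked for a larger difference than that. Tgfbr3, at -0.78, had an interval without 0 and still did not pass (limma adjusted p = 0.162). No array was high or low throughout. Compared with the wild-type mean, mgR613 was higher in 8 genes, mgR611 in 7, mgR614 in 5 and mgR612 in 4. WT675 had the lowest value of all 8 arrays in Tgfb1, Tgfb3, Skil and Pmepa1, but the highest wild-type value in Tgfb2.

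The other genes of the pathway were read from 4 lists, on which 93 genes stood, 84 of them tested. In all, 7 rose and 0 fell, against the background of 1.54% and 0.558% of rows given above. The median difference was 0.08. Of the others, 3 were not analysed here and 6 lay under the filter on dim rows.

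Among 19 tested genes of latency and activation, 1 rose and 0 fell (limma), with a median of 0.06. At an unadjusted limma p under 0.05, 5 were higher (background 7.45% of all rows tested) and 1 was lower (6.72%). Thbs1, which encodes thrombospondin-1, a protein able to activate latent TGF-beta, had signals of 14.66, 13.32, 13.14 and 13.78 in mutant and 10.98, 11.02, 11.50 and 11.61 in wild-type arrays. The genotypes did not overlap, as in 5.26% of all rows tested with the mutant arrays higher. The rise was 2.45 (SE 0.315, limma adjusted p = 0.00522). It missed the threshold only without the 2 arrays highest in brown fat markers, mgR614 and WT676 (2.34, adjusted p = 0.0599; 0.00290 to 0.0599 over all alternatives). Ltbp4 and Ltbp2, which encode proteins of the latent TGF-beta binding family, had differences of -1.14 (adjusted p = 0.12) and 0.84 (adjusted p = 0.129). Nrros, which anchors latent TGF-beta on myeloid cells, was at 0.75 (adjusted p = 0.136). Of the same family as Ltbp4 and Ltbp2, Ltbp1 (0.04) and Ltbp3 (0.03) were named after their values were seen. Neither moved by as much as their standard errors of 0.235 and 0.124.

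Of 16 tested signal transducers 0 passed in limma, and the median was -0.06. At an unadjusted limma p under 0.05, 2 were higher (background 7.45% of all rows tested) and 3 were lower (6.72%). The smallest p-values belonged to the small GTPase Rhoa (0.46, adjusted p = 0.106), its target kinase Rock1 (-0.68, adjusted p = 0.223) and the kinase Map3k7, also called TAK1 (0.29, adjusted p = 0.313). Rhoa passed in 1 of 20 alternatives, the fit without an intensity trend (adjusted p = 0.0495; 0.0495 to 0.262 over all). The receptor-activated Smad2 (-0.05, adjusted p = 0.929) and Smad3 (0.03, adjusted p = 0.959), named after their values were seen, did not pass. Their partner Smad4 (-0.35, adjusted p = 0.336), named likewise, did not pass either. All mutant values of Smad4 (8.75 to 9.27) lay below the wild-type values (9.29 to 9.54), as in 3.65% of all rows tested. The genotypes overlapped in 12 of the 16 transducers and were apart in the others, against 8.92% apart over all rows tested.

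Of 17 tested negative regulators 0 passed in limma, and the median was -0.04. At an unadjusted limma p under 0.05, 1 was higher (background 7.45% of all rows tested) and 2 were lower (6.72%). The smallest p-values were those of the ubiquitin ligase Smurf1 (0.43, adjusted p = 0.252), the decoy receptor Bambi (-0.97, adjusted p = 0.300) and Ldlrad4 (-0.44, adjusted p = 0.306), whose protein hinders SMAD activation. Bambi spread widely in wild-type arrays, with 9.06, 7.59, 8.80 and 9.68, and WT676 lay below 3 of the mutant arrays.

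Among 33 tested genes that TGF-beta can induce, 6 rose (background 1.54% of all rows tested) and 0 fell (0.558%) in limma, with a median of 0.33. At an unadjusted limma p under 0.05, 17 were higher (background 7.45%) and 1 was lower (6.72%). Most of these genes are also induced by other signals. Those that rose included Tnc, tenascin-C (2.67, SE 0.372, adjusted p = 0.00713), and Fn1, fibronectin (1.98, SE 0.275, adjusted p = 0.00701). They also included Timp1, a metalloproteinase inhibitor (1.94, SE 0.271, adjusted p = 0.00713), and Cdkn1a, the cell cycle inhibitor p21 (1.90, SE 0.290, adjusted p = 0.0116). Col1a1, a chain of type I collagen (0.98, SE 0.141, adjusted p = 0.00837), and Comp, cartilage oligomeric matrix protein (0.89, SE 0.180, adjusted p = 0.0397), rose as well. In all 6 the genotypes did not overlap, which is no further support because the 6 were picked by p-value on the same arrays. The genotypes overlapped in 22 of the 33 genes. Over all rows tested, 5.26% were apart with the mutant arrays higher and 3.65% with them lower. Comp passed in 11 of 20 alternatives, missing the threshold without mgR611, mgR613, mgR614, WT675, WT676 or WT744 (adjusted p from 0.0842 to 0.122), with no filter (0.0775), after quantile normalization (0.0547) and without mgR614 and WT676 together (0.213), over a range of 0.0196 to 0.213. Tnc missed it without mgR614 and WT676 together (2.59, adjusted p = 0.0812). Elastin, Eln (1.1, adjusted p = 0.0536), the crosslinking enzyme Lox (1.14, adjusted p = 0.0789) and the transcription factor Snai1 (0.45, adjusted p = 0.0881) came next, and all 3 passed without mgR612 (adjusted p = 0.0145, 0.0314 and 0.0296). Eln passed in 3 of 20 alternatives, also over the rows above the upper quartile of signal (0.0389) and over rows with 1 symbol (0.0404). Snai1 was dim, with 3.71 to 4.38 over the 8 arrays, about the level of the olfactory receptor rows. Of the 33 genes, 25 had a difference above 0 and 8 below 0, and 46.1% of all rows tested were above 0. Ctgf (0.34, limma adjusted p = 0.827) and Tagln (0.06, adjusted p = 0.867), named after their values were seen, did not pass. Named likewise, Acta2 (-0.12, adjusted p = 0.605), Tgfbi (-0.17, adjusted p = 0.834) and Cnn1 (-0.56, adjusted p = 0.594), the lowest of the list, did not pass either. Signals of Acta2 were 19.14 to 19.57, close to the ceiling of 19.93, which limits what its small difference can show. Acta2, Tagln and Cnn1 also stood among the 8 smooth muscle markers given above. These lists were drawn up with earlier results of the same arrays known, so they are no independent evidence of a direction. The macrophage marker means given above also differed between the genotypes beside these genes, and their part in these rises was not tested.

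**Figure D4:**
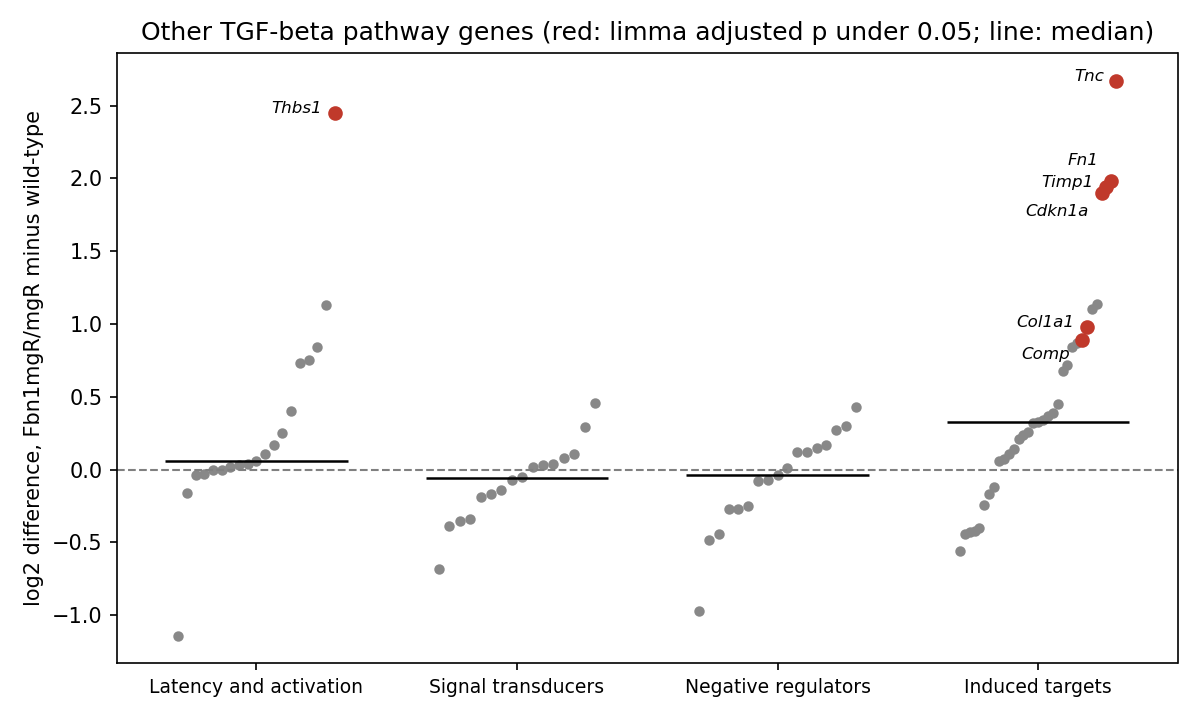
Log2 difference (vertical axis, Fbn1mgR/mgR minus wild-type) of the tested genes of 4 pathway lists, each point 1 gene, with the list median as a line and genes past a limma adjusted p of 0.05 in red. The 7 red points are Thbs1 (2.45) and 6 induced targets from Comp (0.89) to Tnc (2.67), and no point below 0 is red.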

How the data were processed

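The authors deposited normalized log2 signals per transcript cluster, called rows here, for 65956 rows of 8 arrays. The Transcriptome Analysis Console was used, per the submitters' processing notes. Its version and how it normalized and summarised probes were not given in the sources used here. Symbols came from the platform annotation, in which 30604 rows had 1 symbol, 2146 several and 33206 none; 827 symbols were updated through RefSeq gene IDs (GRCm38.p6). Groups came from the genotype label. Differences were fitted on all rows with limma 3.58.1 in R 4.3.3 (lmFit, eBayes with an intensity trend), and p-values were adjusted by Benjamini-Hochberg over the 32957 rows above the median of mean signals (4.01). All p-values come from limma. All 10 genes described passed the filter. The number of arrays limits the precision. The fit was tested on simulated data. Scripts used Python 3.11.15, pandas 2.3.3 and matplotlib 3.10.9.

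These 10 genes and the lists were chosen with earlier results of these data known. Named genes were these 10, every listed pathway gene past the threshold and the 3 others of each list with the smallest p, and the 3 nearest profiles to the one with the smallest p. Predicted gene models were left out of the last. Alternatives covered the variance model, array weights, filter, rows tested, normalization, a brown fat covariate, gene summary, threshold and each array left out. A fit without the 2 arrays highest in brown fat markers and 1 with the variance moderated over filtered rows only were added after the data were seen.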

Additional observations from a re-analysis of the deposited data

Results flagged for a closer look

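The Tgfbr3 signal of mgR612, 9.63, lay apart from the other 3 Fbn1mgR/mgR arrays (8.70 to 8.76), with a gap to the nearest of them that made up 0.935 of the range of the group, past Dixon's criterion at the 95% level. It was the only such value in 20 groups of 4 arrays examined (10 genes in 2 genotypes), and chance alone passes that criterion in about 1 of 20 groups. The same array was the lowest of the 4 mutant arrays in Tgfb2 (10.76), Smad7 (5.93), Skil (8.71) and Pmepa1 (10.33), and the highest in Tgfbr2 (10.30) and Eng (9.51). It was the highest of them in the marker means of mesothelium (11.08), macrophages (10.13), fibroblasts (13.61), B cells (5.13) and skeletal and cardiac muscle (6.07). It was the lowest in those of T cells (5.37) and brown fat (7.32). Of the B cell markers, Pax5 (3.93 to 4.56 in mutant arrays) and Blk (4.09 to 4.52) were dim.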

How the results depend on the processing

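Each of the 10 differences was refitted under 20 alternatives and each count of calls under 21. Of all these values, 279 kept their direction and their side of the threshold, counts staying within 1.5 times. With each array left out in turn, members called lower numbered 0 to 1, the difference of Tgfbr3 was -1.0 to -0.69, that of Tgfbr2 -0.01 to 0.33 and that of Skil -0.06 to 0.16. The single call and the 2 changes of sign came without mgR612 (Tgfbr3 and Tgfbr2) and without WT675 (Skil); the cause was not tested. Pathway genes called higher fell from 7 to 4 without mgR614 and WT676, which leaves 3 arrays a genotype, and were 6 to 10 with 1 array left out. Over all rows, 507 higher and 184 lower calls became 339 and 99 with no filter, 816 and 393 at an adjusted p under 0.1, 171 and 77 without mgR614 and WT676, and 272 to 524 and 66 to 146 with 1 array left out. No paired analysis was possible because the genotypes share 0 replicate numbers. Dim signal limited none of the 10 genes.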

Other observations

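The array mgR611, highest in Tgfb2 and Tgfb3, was also the highest of the 4 mutant arrays in Thbs1 (14.66), Fn1 (16.03), Tnc (9.91) and Cdkn1a (12.78), which are 4 of the 7 pathway genes that rose. Of the others, Col1a1 was highest in mgR612, Comp in mgR613 and Timp1 in mgR614. Over all rows tested mgR611 was the highest mutant array in 21.4%. The array was singled out after its values were seen, so that share is no test of it. Lrrc32, whose protein GARP holds latent TGF-beta on the cell surface, was named after its values were seen: it had 9.91 in mgR611 against 8.19 to 8.50 in the other mutant arrays, and its difference was 1.13 (SE 0.413, limma adjusted p = 0.244).

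Platelets store TGFB1, and of 4 platelet markers tested only Pf4 rose (1.29, SE 0.239, limma adjusted p = 0.0277), while Ppbp (0.14, adjusted p = 0.974), Itga2b (0.04, adjusted p = 0.921) and Gp9 (-0.17, adjusted p = 0.793) did not pass. Over all rows tested, 1.54% passed as higher. Pf4 is also made by some macrophages.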
